A study of Homo sapiens with 8 samples.

Results

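An intron can start at more than a single place. Pairs of competing 5′ splice sites were examined here, in which 2 starts of an intron lay 3 to 100 nt apart and were joined to the same 3′ splice site. A pair was formed from 2 splice junctions on the same chromosome and strand with the same acceptor. Both junctions had to be marked as annotated in the deposited tables, and each needed at least 20 uniquely mapped reads summed over the 8 libraries. The rule gave 1998 pairs, of 11951 pairs with a common acceptor whose 5′ sites lay 3 to 1000 nt apart with any annotation mark. The members were chosen on distance, annotation and summed reads, so their read totals are a description; the share of each site by treatment did not enter the rule. The 1998 pairs held 3702 junctions, 1779 acceptors and 1544 host genes, and 300 pairs shared a junction with another pair of the set.

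The libraries came from HEK293, an established human embryonic kidney cell line, treated with 25 nM LMI070 (4 libraries, replicates 13 to 16) or with the solvent DMSO (4 libraries, replicates 9 to 12). LMI070, also called branaplam, is a small molecule that alters splicing. Total RNA was depleted of ribosomal RNA and sequenced in lanes 7 and 8, with 2 libraries of each group per lane. The duration of treatment is not given in the sources used here, and the labels do not say if the libraries are separate cultures. Each p therefore measures the spread between these libraries, which may be technical.

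The 5′ splice site is first bound by U1 snRNP, whose RNA pairs with the last 3 bases of the exon and the first 6 of the intron; the sequence that pairs best is CAG followed by GTAAGT. Where a second site lies nearby, the cell can use either, and the exon is then longer or shorter by the distance between them. In coding sequence a distance that is a multiple of 3 keeps the reading frame. LMI070 is known from other work to favour 5′ sites at which the exon ends in GA, most often AGA, followed by GTAAG. In each pair the site nearer to the 5′ end of the gene is called upstream. Its use gives the shorter exon, and the share of the downstream site is its percentage of the reads of both junctions.

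The letters of the sites in the results below came from GENCODE 29 transcripts on GRCh38. They are written 5′ to 3′ in the sense of the gene, with the GT or GC that starts each intron in capitals. Pairs a few nt apart are shown as a stretch from 6 exon bases before the upstream site to the last known base of the downstream site. The sites of the pairs 4 and 6 nt apart overlap and share letters, and those of the pairs 9 nt or more apart do not.
SRSF5, 4 nt: cgtccgGTagGTgagt
SNHG5, 4 nt: tttgaaGTagGTtgta
RACK1, 4 nt: cacaacGCaaGTagct
DDX17, 6 nt: gcggggGTaaggGT
GPX4, 6 nt: ggacaaGTaccgGTgggc
WT1, 9 nt: atacagGTaaaacaaGT
SRSF7, 9 nt: atcgagGTatttccaGT
MADD, 12 nt: tctgaaGTtagcaccgtgGT
CNOT1, 15 nt: agcagaGTaagatgaaaccttGT
At SRSF5 the GT of the downstream site is the fifth and the sixth intron base of the upstream site, which is the arrangement of all pairs 4 nt apart. At RACK1 the upstream intron starts with GC, the rarer donor.

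For pairs farther apart the 3 exon bases and the intron bases of each site are shown. The first set holds deeply read pairs with both sites in use, and the second the pairs with an exon end in GA at the upstream site in genes listed as responsive to LMI070.
HNRNPC upstream: cggGTcagt
HNRNPC downstream: cagGTccgg
HNRNPH1, 41 nt, upstream: tagGTgagt
HNRNPH1, 41 nt, downstream: acgGTgggt
RPL15 upstream: cagGTaggc
RPL15 downstream: cagGTccgg
VPS29 upstream: agaGTaagt
VPS29 downstream: aagGTctgt
POMT2 upstream: ggaGTaagg
POMT2 downstream: cagGT
The POMT2 downstream site is shown as far as transcripts gave its letters.

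The libraries held 20369466 to 36131054 uniquely mapped junction reads, of which 457315 to 786917 fell in the pairs, a median of 69.5 to 123.5 reads per pair and library. In the junctions of the pairs, libraries of 1 group from the same lane differed with a chi-square per degree of freedom of 1.12 to 1.93, and those from different lanes with 1.98 to 4.14. No library was therefore a copy of another, but the values near 1 within a lane do not tell separate cultures from repeated preparations of the same RNA. Lane was a term in the models behind the p values, intervals and fold changes below, except where stated. The shares, their SDs and the differences in mean share used no model and are not adjusted for lane. Of the 6 markers of the HEK293 line, VIM had 144169 reads over the 8 libraries, NEFL 7949 and LIN28B 5817. INA had 1394, NEFM 1186 and PAX2 only 133. The defining genes of blood (PTPRC, 18 reads), keratinising epithelium (KRT5, 1) and hepatocytes (ALB, 19) were near 0. Among the 5 fibroblast genes COL1A1 had 4485 reads, COL3A1 had 593 and COL1A2 had 2. COL1A1 and COL3A1 passed the expression filter. Together they had 19.4 to 24.2 CPM (counts scaled to the library total after TMM adjustment) in DMSO and 22.7 to 30.8 in LMI070. Their part in the results was not tested.

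The most frequent distance between competing sites was 4 nt, with 118 pairs or 5.91% of the set. It was followed by 9 nt with 71 pairs, 6 nt with 57 and 12 nt with 56. Only 22 pairs lay 3 nt apart. Among the 905 pairs whose variable stretch was wholly coding, 515 (56.9%) had a distance that was a multiple of 3, and the other remainders held 24.2% and 18.9%. Among the 664 pairs in 5′ untranslated regions the same share was 28.9%. The annotation fixed which pairs could enter, so these shares describe the annotated and read sites.

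**Figure D1:**
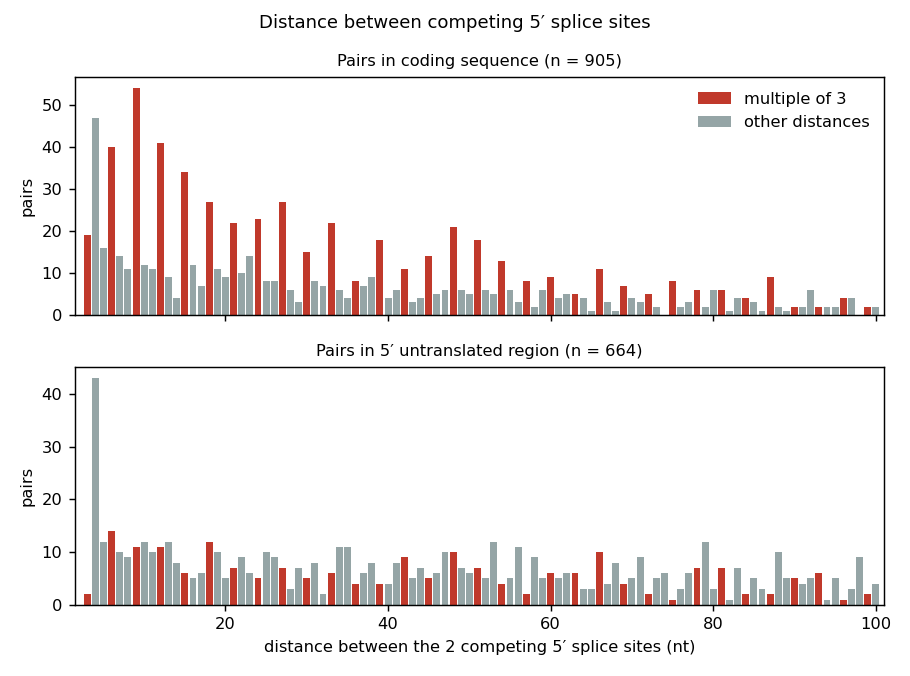
Number of pairs at each distance in nt between the competing 5′ splice sites, for 905 pairs in coding sequence (upper panel) and 664 in 5′ untranslated regions (lower panel), with multiples of 3 in red. Multiples of 3 stand out in coding sequence, where they hold 56.9% of the pairs, and 4 nt is the tallest bar in the 5′ untranslated regions.

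In the 118 pairs 4 nt apart the first 6 intron bases of the upstream site end in the GT of the downstream site. The most frequent letters were GTAGGT (36 pairs), GCAGGT (14), GTGGGT (13) and GTGAGT (10). The median share of the downstream site in DMSO was 39.1% for GTAGGT and 32.1% for GTGGGT. It was 10.9% for GTGAGT and 14.5% for the 6 pairs with GTAAGT, the letters that pair fully with U1. With GTTGGT (8 pairs) the median share was 91.4%. The downstream share was thus lower with GTGAGT or GTAAGT at the upstream site than with GTAGGT or GTGGGT.

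Over all 1998 pairs the median share of the downstream site was 47.2% in DMSO. Both sites carried at least 10% of the reads in 1198 pairs, the downstream site was under 5% in 280 and over 95% in 221. The median share was 66.4% in coding sequence, 41.8% in 5′ untranslated regions and 19.4% where no transcript with the downstream site was coding. Coding pairs out of frame had a median of 80.6% (390 pairs) and those in frame a median of 60.8% (515 pairs). Use of the downstream site gives the longer exon. The place of each pair, and with it the coding set, was read only from annotated transcripts with the downstream site. Place and share are therefore not independent, and the medians by place and frame describe this sorting as well as the sites.

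The share followed the match to the U1 consensus, counted as the number of 9 positions that equal CAG and GTAAGT. With 4 matches at the upstream site the median downstream share was 66.8%, with 6 it was 41.2% and with 7 it was 27.0%. For the downstream site the order was the opposite, from 33.8% with 4 matches to 76.7% with 8. Where the downstream site had fewer matches than the upstream site the median was 24.5% (321 pairs), where they were equal 48.3% (299 pairs), and where it had more 63.8% (281 pairs). Both sites had all 9 letters in the transcripts in 901 pairs; the others lack letters because no transcript extends past the downstream site. Pairs with GC at the upstream site only had a median share of 66.3% (85 pairs), those with GC at the downstream site only 19.2% (59 pairs), and those with GT at both 47.2%. These medians describe the pairs and carry no test, since neighbouring pairs share sites.

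**Figure D2:**
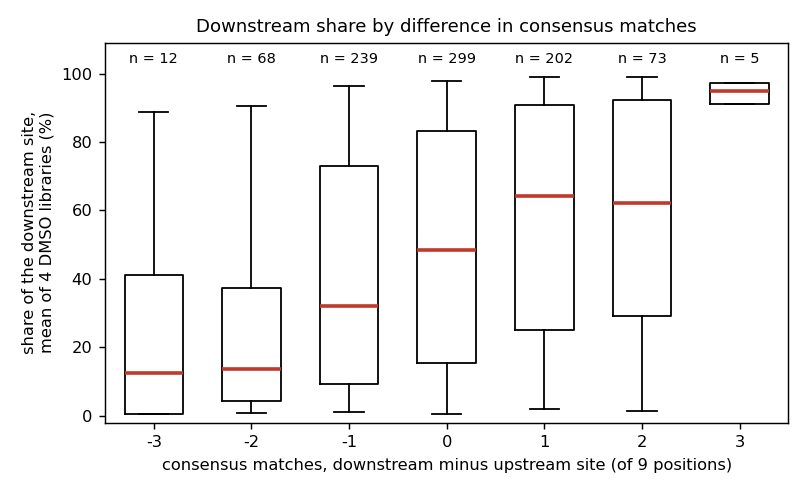
Share of the downstream site in percent (mean of 4 DMSO libraries) by the number of consensus matches at the downstream minus the upstream site, for differences from -3 to 3; boxes span the quartiles, whiskers the 5th to 95th percentile and red lines the median. The median is 13.7% at a difference of -2, 48.3% at 0 and 64.2% at 1, and the boxes of neighbouring classes overlap for differences up to 2; 3 pairs with a difference of 4 either way are not drawn.

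The comparison the design implies is whether 25 nM LMI070 moved the choice between the sites. Each pair with at least 10 reads in every library was tested, which held for 1761 of the 1998 pairs. The quasi-likelihood test of edgeR was run on the paired counts of all 10165 testable pairs up to 1000 nt apart, with Benjamini-Hochberg adjustment over all of them. None of the 1761 pairs was called at an adjusted p under 0.05, where 0.236% of all tested pairs were. At an unadjusted p under 0.05 there were 77 pairs by edgeR (4.37%; 35 with a higher and 42 with a lower downstream share), 11 by DESeq2 and 68 by limma, and neither of the other tools called a pair. The background at that threshold was 5.33%. The smallest adjusted p by edgeR was 0.42. The groups did not overlap in 46 pairs (2.61%), beside 3.28% of all tested pairs.

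The difference in mean share, LMI070 minus DMSO, had a median of -0.00604 percentage points, with 878 pairs above and 883 below 0. Its median size was 1.37 points and 95% of the pairs lay within 8.16 points. A difference of at least 10 points was seen in 51 pairs, with a median of 185 reads over the 8 libraries against 808 for all tested pairs. The mean share over the tested pairs was 47.1% to 47.5% in each library of either group.

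A count of 0 does not show that the shares were alike. The 95% interval of the change lay within 10 points on either side of 0 for 1138 pairs (64.6%), and within 1 unit of log2 odds for 731 (41.5%). Depth set this precision. At a mean of 10 to 30 reads per library (232 pairs) the median SD between DMSO libraries was 8.94 points, and counting error alone gives 9.53. At 100 to 300 reads (549 pairs) it was 1.93 beside 2.18, and above 1000 reads (94 pairs) it was 0.217 beside 0.227. Replicates of a group thus differed in the share by about as much as counting error gives. The largest difference between groups was 22.0 points among the shallowest pairs and 2.41 points above 1000 reads.

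**Figure D3:**
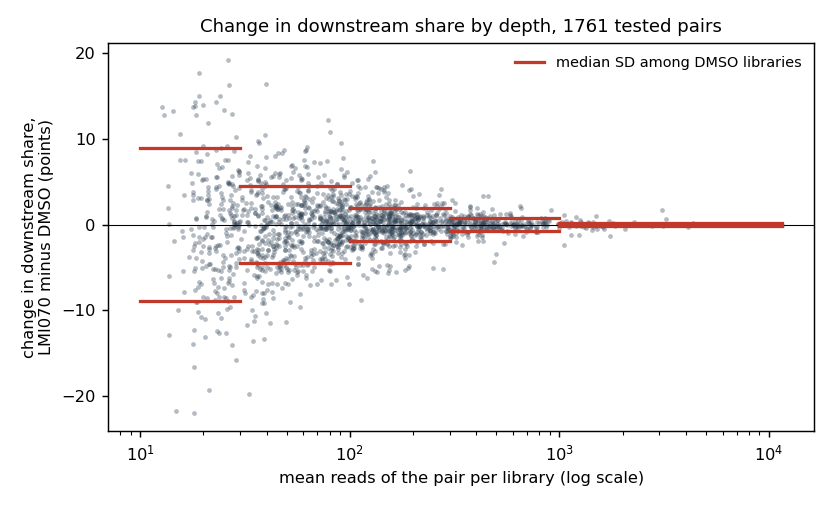
Change in downstream share, LMI070 minus DMSO in percentage points, against the mean reads of the pair per library on a log scale; each point is 1 of 1761 pairs and red lines mark plus and minus the median SD between DMSO libraries in each depth class. The spread narrows from up to 22.0 points at 10 to 30 reads to at most 2.41 above 1000 reads, as the SD does.

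The neighbouring classes gave calls in the same fit. Of 4969 tested annotated pairs more than 100 and up to 1000 nt apart, 6 were called, all with a higher downstream share (0.121%). Of 1138 pairs within 100 nt that held an unannotated junction, 2 were called (0.176%), and of 2297 wider pairs with an unannotated junction, 16 were (14 higher, 2 lower, 0.697%). That these shares differ from 0 of 1761 was not tested. The 2 called pairs within 100 nt fell outside the rule only by annotation, and in both an upstream site with AGA at the exon end was higher with LMI070. In SKA2, a gene of a kinetochore complex, the site at position 59119395 of chromosome 17, with agaGTaaga, lies 77 nt from the annotated site. It had 0 reads in each DMSO library and 5, 5, 10 and 7 in LMI070 replicates 13 to 16, a share of 1.65% ± 0.836 (SD, n = 4; adjusted p = 2.12e-05 by edgeR). In SAFB, a nuclear RNA-binding protein, the site at position 5654141 of chromosome 19, with agaGTaagg, lies 60 nt from its partner. It had 1, 1, 0 and 0 reads in DMSO and 8, 7, 2 and 8 in LMI070, and its share rose from 0.117% ± 0.137 to 1.20% ± 0.515 (SD, n = 4; adjusted p = 0.0372 by edgeR). The SKA2 and SAFB sites met the minimum of summed reads per junction only through their LMI070 reads. Such a minimum favours the entry of rare sites that are high in either group. The adjusted p values and the shares of called pairs in these classes do not allow for that.

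Over the 24 called pairs the letters of the exon end at the site that was higher with LMI070 were known in 13, and 10 of these ended in GA. Pairs of LARP7 and of ZNF37BP that share a site were counted separately. Among the 3996 site entries of the annotated close pairs, 107 (2.68%) ended in GA. The called pairs all lie outside that set, and the share ending in GA over all tested pairs was not counted. Calls and exon ends were both in view when this was counted. In 59 close pairs GA ended the exon at the upstream site only, in 38 at the downstream site only and in 5 at both. Of the 84 tested pairs with GA at a single site, the share of the GA site was higher with LMI070 in 43 and lower in 41, with a median difference of 0.0977 points and quartiles of -1.58 and 0.965. None was called. With AGA at the upstream site only (17 tested pairs), the downstream share was higher with LMI070 in 6 and lower in 11. Its median difference was -0.521 points. With AGA at the downstream site only (10 tested pairs), that share was higher in 7 and lower in 3, with a median difference of 0.395 points. In both sets the share of the AGA site was higher with LMI070 in most pairs, but the differences spread to both sides of 0. The change in the downstream share ran from -2.5 to 9.73 points with AGA upstream, and from -5.92 to 16.3 with AGA downstream. The wider count for GA, 43 against 41, was nearly even. No pair of either set was called, and the lean was not tested.

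The motif GAGTAAG, the 2 last exon bases and the 5 first intron bases, was searched at each site in the sense strand. It stood at 11 of the 2541 distinct sites with known letters (0.433%). These sites are in 12 pairs, 10 with the motif at the upstream and 2 at the downstream site, since an NDUFA3 site belongs to 2 pairs. All 9 letters were known at the upstream site of 1972 pairs but at the downstream site of only 905. The counts of 10 and 2 therefore cannot be compared directly. The 12 pairs were looked up after the values had been seen. In the 11 tested pairs the share of the motif site was higher with LMI070 in 6 and lower in 5, with a median difference of 0.391 points; the NDUFA3 site is counted once each way. CNOT1, the scaffold of the CCR4-NOT deadenylase, has agaGTaaga at an annotated coding site 15 nt before a second site (chromosome 16, positions 58556861 and 58556846). Its downstream share was 71.3%, 73.4%, 67.9% and 71.2% in DMSO replicates 9 to 12 and 71.2%, 69.5%, 73.3% and 67.1% in LMI070 replicates 13 to 16. The groups overlapped throughout, and the 95% interval of the change ran from -5.13 to 3.66 points. In CHIC2 the downstream site has agaGTaagt, and its share was 96.3% ± 1.62 in DMSO and 94.1% ± 2.87 in LMI070 (SD, n = 4). In RPL10, a ribosomal protein of the large subunit, the downstream site tgaGTaagc lies 4 nt from its partner and carried 2.88% to 3.15% in DMSO and 1.37% to 3.70% in LMI070.

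A list of 21 genes with exons known to respond to LMI070, or named in earlier results of these data, gave 7 close pairs, in VPS29, POMT2, BECN1 and MADD. VPS29 encodes a retromer subunit. Its pair lies in the 5′ untranslated region of internal exons on chromosome 12 (positions 110499534 and 110499456, 78 nt apart), and the upstream site agaGTaagt carried most of the reads. The downstream share was 7.50%, 16.3%, 16.5% and 7.38% in DMSO replicates 9 to 12 and 10.5%, 11.8%, 11.8% and 10.4% in LMI070 replicates 13 to 16. The 4 LMI070 libraries sat between the DMSO values. The mean was 11.9% ± 5.18 in DMSO and 11.2% ± 0.774 in LMI070 (SD, n = 4), with an interval of the change from -4.17 to 4.21 points. Both junctions together had 5.45 ± 0.943 CPM in DMSO and 6.76 ± 0.581 in LMI070 (SD, n = 4). These CPM are scaled to all uniquely mapped junction reads, without TMM adjustment.

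POMT2, an enzyme of protein O-mannosylation, has its pair 91 nt apart on chromosome 14 (positions 77306336 and 77306245), with ggaGTaagg at the upstream site. The downstream share in the DMSO libraries was 4.44%, 5.94%, 7.55% and 8.89%, beside 2.99%, 1.16%, 5.26% and 1.33% in LMI070. LMI070 replicate 15 lay among the DMSO libraries and the other 3 below them. The difference was -4.02 points, with a 95% interval from -5.38 to -1.10 that is not adjusted for the number of pairs, an unadjusted p of 0.0138 and an adjusted p of 0.764 by edgeR. It was -6.06 points in lane 7 and -1.98 in lane 8. BECN1, a subunit of the autophagy lipid kinase complex, has a pair 22 nt apart in its 5′ untranslated region with a downstream share of 40.3% ± 3.47 in DMSO and 39.2% ± 3.38 in LMI070 (SD, n = 4), and a pair 43 nt apart with 0.841% and 0.817%. MADD, an exchange factor for Rab3, has 3 sites within 12 nt, joined to an acceptor at position 47295896 of chromosome 11. The share of the last site against the first was 66.04% ± 3.20 in DMSO and 67.3% ± 5.51 in LMI070, and against the middle site 76.2% ± 9.66 and 75.9% ± 5.19 (SD, n = 4). The middle site had 37.2% and 39.8% against the first, a difference of 2.54 points that was -3.46 without DMSO replicate 12. None of these 7 pairs was called, and the intervals of the 6 pairs other than POMT2 included 0.

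The deepest pairs with both sites in use, 5 of which are given, had narrow intervals. HNRNPC, a nuclear RNA-binding protein, uses coding sites 39 nt apart on chromosome 14 (positions 21230996 and 21230957). Its downstream share in the DMSO libraries was 39.1%, 39.5%, 39.4% and 40.2%, beside 40.9%, 38.4%, 39.04% and 40.8% in LMI070. The groups overlapped, and the interval of the change ran from -1.79 to 2.28 points. HNRNPH1, a splicing regulator that binds G-rich RNA, had a share of 54.3% ± 1.38 and 54.1% ± 0.589 (SD, n = 4) at first-exon sites 41 nt apart. COX7C, a subunit of cytochrome c oxidase, had 89.6% ± 0.539 and 89.3% ± 0.694 (SD, n = 4) at sites 77 nt apart.

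The ribosomal protein genes of this group carried their pairs in the first exon. RPL38 (35 nt) had 86.2%, 87.1%, 86.3% and 86.4% in DMSO and 86.9%, 87.3%, 87.2% and 87.2% in LMI070. Of the LMI070 values, 3 were above all DMSO values, and the adjusted p was 0.988 by edgeR. RPL15 (66 nt) had 10.5% ± 0.807 and 9.93% ± 0.836 (SD, n = 4).

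**Figure D4:**
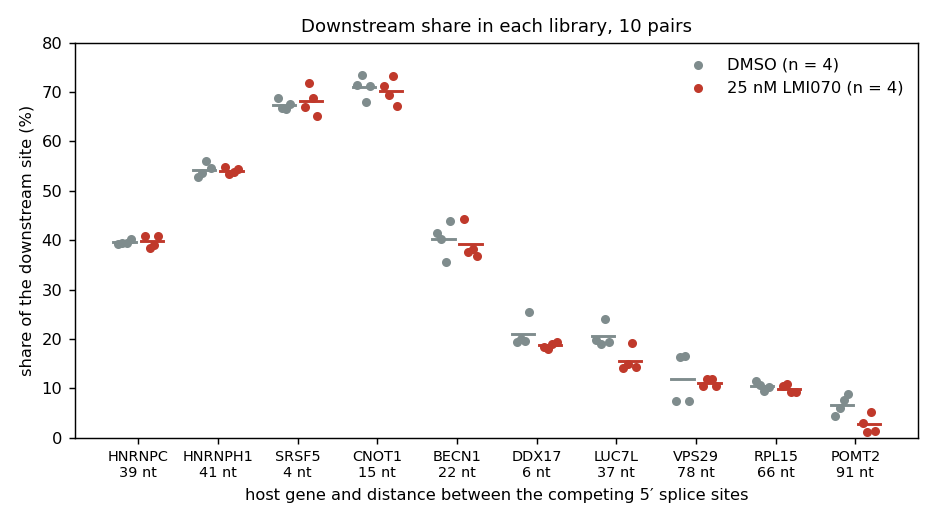
Share of the downstream site in percent in each of 4 DMSO (grey) and 4 LMI070 (red) libraries for 10 pairs named in the text, with lines at the group means. Only tested pairs whose groups overlapped were eligible to be drawn, so the overlap in each of the 10 was fixed by this choice. Among the 10 pairs, LUC7L and POMT2 show the widest gaps between means, -4.87 and -4.02 points (LMI070 minus DMSO).

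Factors that act on the 5′ splice site are hosts of such pairs themselves. SRSF5, an SR protein, had a downstream share of 68.8%, 66.8%, 66.5% and 67.6% in DMSO and 66.9%, 71.9%, 68.8% and 65.2% in LMI070 at its sites 4 nt apart (chromosome 14, positions 69767252 and 69767256, in the 5′ untranslated region). LUC7L, a U1 snRNP-associated protein, had 19.7%, 18.9%, 23.9% and 19.4% in DMSO and 14.02%, 14.8%, 19.2% and 14.4% in LMI070 at sites 37 nt apart (chromosome 16, positions 189967 and 189930). LMI070 replicate 15 fell among the DMSO libraries and the other 3 lay below them. The difference was -4.87 points (unadjusted p = 0.0482, adjusted p = 0.93 by edgeR), and it was -7.44 points in lane 7 and -2.31 in lane 8. SRSF7, an SR protein, had 94.7% ± 1.31 and 94.96% ± 0.654 (SD, n = 4) at coding sites 9 nt apart.

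HNRNPH1 holds 5 of the pairs. At the acceptor at position 179616219 of chromosome 5 it has 3 coding sites spaced 30 and 9 nt apart, and the middle site took nearly all reads. Against the middle site the last site had a share of 0.268% ± 0.0587 in DMSO and 0.356% ± 0.146 in LMI070 (SD, n = 4). The middle site had 95.1% ± 0.425 and 95.3% ± 0.296 against the first, and the last site 4.95% ± 0.609 and 6.70% ± 2.70 against the first (SD, n = 4). At another acceptor, coding sites 9 nt apart had 99.3% ± 0.0726 and 99.1% ± 0.257 (SD, n = 4). SRSF1, an SR protein that promotes U1 binding, had 12.4% ± 3.59 and 8.62% ± 2.02 at sites 16 nt apart, and SNRNP70, the U1-70K protein, had 24.7% ± 5.995 and 10.7% ± 8.21 at sites 12 nt apart in a 3′ untranslated region (SD, n = 4). SNRNP70 had 115 and 27 reads at its sites over the 8 libraries, and the interval of its change ran from -19.3 to 2.24 points. TIA1, which binds U-rich RNA next to weak 5′ sites, had 3.05% ± 0.944 and 2.10% ± 0.870 (SD, n = 4) at sites 6 nt apart. SNRPA, the U1-A protein, had 68.3% ± 12.4 and 56.4% ± 14.1 at sites 40 nt apart that were too shallow for the test, and 98.9% ± 0.240 and 98.7% ± 0.515 at sites 63 nt apart (SD, n = 4). TRA2A, an SR-like splicing activator, had 83.4% ± 6.93 and 76.8% ± 10.1 at sites 11 nt apart, and a second SRSF1 pair, 37 nt apart, had 0.413% ± 0.0971 and 0.233% ± 0.115 (SD, n = 4). USP39, a protein of the tri-snRNP, had 92.3% ± 1.56 and 92.5% ± 2.05 (SD, n = 4) at sites 7 nt apart.

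The levels of the recognition factors were read from spliced reads per gene. None of the 52 listed genes, among them U1 proteins, SR proteins and tri-snRNP proteins, was called by edgeR after the expression filter, with 7 at an unadjusted p under 0.05 and a median log2 fold change of 0.0098. Without that filter 4 of them, HNRNPA1, PRPF8, SNRNP200 and TIAL1, were called higher. In all 4 the LMI070 libraries spread more widely than the DMSO libraries. With the filter, PRPF8 had 1129 ± 16.6 CPM in DMSO and 1306 ± 216 in LMI070, and SNRNP200 had 613.9 ± 13.2 and 690.6 ± 108. TIAL1 had 56.3 ± 3.75 and 66.2 ± 9.87, and HNRNPA1 had 2204 ± 71.4 and 2438 ± 124 (SD, n = 4). Over all 14397 genes tested 0.125% were called (3 higher, 15 lower), 1471 had an unadjusted p under 0.05, and the median was 0.00318. Of the 1542 host genes tested, 2 were called, both lower: TENT2, a poly(A) polymerase (log2 fold change -0.52), and CEP170, a centrosomal protein (-0.23).

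WT1 and FGFR1 are textbook cases of sites a few nt apart. In WT1 the sites 9 nt apart decide whether the zinc finger protein carries the amino acids KTS between its last fingers. The downstream, KTS-adding site (chromosome 11, positions 32391980 and 32391971) had a share of 54.5%, 61.9%, 63.6% and 77.8% in DMSO and 50.0%, 51.9%, 76.9% and 50.0% in LMI070. The sites had 56 and 78 reads over the 8 libraries, and the pair was below the minimum per library for the test. FGFR1, a fibroblast growth factor receptor, had 38.8% ± 7.30 in DMSO and 41.8% ± 5.07 in LMI070 (SD, n = 4) at coding sites 6 nt apart, with overlapping groups. The difference of 2.97 points was -0.221 without DMSO replicate 11.

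The deepest pairs at the 3 most frequent distances were mostly one-sided. RACK1, a ribosomal scaffold protein, had 80009 reads at its upstream GC site and 61 at the GT site 4 nt downstream, a share of 0.0581% ± 0.0177 in DMSO and 0.0987% ± 0.0262 in LMI070 (SD, n = 4). SNHG5, a snoRNA host gene, had 0.821% and 0.712% at 4 nt. GPX4, the lipid peroxide reductase, had 99.5% in both groups at 6 nt. DDX17, an RNA helicase, had 19.4%, 19.9%, 19.5% and 25.5% in DMSO and 18.4%, 17.8%, 18.9% and 19.4% in LMI070 at 6 nt. DMSO replicate 12 stood above the other 7 libraries, and the difference of -2.41 points had an unadjusted p of 0.0435 and an adjusted p of 0.92 by edgeR. Without that library the difference was -0.954 points.

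The pairs with the smallest p are named for that alone, after their values were seen. OCIAD1, a mitochondrial membrane protein, had a downstream share of 99.0% ± 1.35 in DMSO and 94.5% ± 2.02 in LMI070, LARP4, a poly(A)-binding cofactor, 97.4% ± 1.03 and 99.2% ± 0.777, BTN2A2, a butyrophilin, 5.94% ± 4.89 and 18.8% ± 5.70, and CAPN10, a calpain protease, 95.5% ± 1.86 and 88.5% ± 4.39 (SD, n = 4). Their adjusted p by edgeR ranged from 0.42 to 0.581, and the less used site had 22 to 43 reads over the 8 libraries. GAPDH and RPLP2 were the deepest pairs whose groups did not overlap, also picked after the values were seen. The GAPDH downstream site, 92 nt into the first intron, had 0.434% ± 0.0196 in DMSO and 0.333% ± 0.0245 in LMI070 (SD, n = 4; adjusted p = 0.956 by edgeR). RPLP2 had 99.82% ± 0.00896 and 99.89% ± 0.0496 (SD, n = 4; adjusted p = 0.956 by edgeR).

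At the limit of 20 reads the rule kept 45 pairs whose weaker junction had exactly 20 and left out 38 with 19. Just inside, HMGN2 had 39069 and 20 reads at its upstream and downstream sites, MECR 44 and 20, and SLC44A3 20 and 54. Just outside, EXO5 had 19 and 76, BLZF1 691 and 19, and ZSWIM8 19 and 599. SLC44A3, a choline transporter-like gene, had a share of 60.2% in DMSO and 92.7% in LMI070 and was too shallow for the test; without the minimum per library its unadjusted p by edgeR was 0.0123 and its adjusted p 0.758.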

How the data were processed

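Per the submitters' processing notes the authors aligned the reads to GRCh38 with STAR 2.6.0c; alignment parameters and annotation release are not given in the sources used here. The deposited tables, 1 per library, hold raw counts of uniquely and of multiply mapped reads across each splice junction and the longest overhang in bases, per the file headers, without normalization. Junctions were matched to GENCODE 29, which held 241959 of the 242597 marked as annotated. The edgeR 4.0.16 quasi-likelihood test (R 4.3.3) on paired counts had a coefficient per library, downstream by lane and downstream by treatment, with at least 10 reads of the pair per library. The library coefficient absorbs depth and gene level. DESeq2 1.42.0 and limma 3.58.1 (log2 ratio, 0.5 reads added) were alternatives. The fit was tested on simulated data. Spliced counts per gene were scaled by TMM, with lane in the model. Values are uniquely mapped reads; in 68 pairs multiply mapped reads were over 10% of the total. Counts without molecular identifiers give counting error only.

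Pairs were named by rule: called pairs, the 6 deepest with both sites at 10% or more, hosts in lists of textbook, drug-responsive and recognition genes, the limit of the rule, and the 2 deepest at the 3 most frequent distances; others are marked where they appear. Of the 6 deepest, 1 is not reported here. The members and lists were chosen with earlier results of these data known.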

Additional observations from a re-analysis of the deposited data

Results flagged for a closer look

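Of 104 groups of 4 libraries examined, in 52 named pairs, 9 had a library far from the other 3; chance flags about 1 in 20 such groups. The values are shares of the downstream site. In DMSO these were DDX17 (25.5% in replicate 12, the others 19.4% to 19.9%), LRWD1 (11.1% in replicate 9, the others 5.06% to 5.71%), LUC7L (23.9% in replicate 11, the others 18.9% to 19.7%), RPL38 (87.1% in replicate 10, the others 86.2% to 86.4%) and TIA1 (4.46% in replicate 12, the others 2.50% to 2.68%). In LMI070 they were BTN2A2 (27.3% in replicate 14, the others 15.2% to 16.7%), LRWD1 (6.45% in replicate 16, the others 3.95% to 4.30%), LUC7L (19.2% in replicate 15, the others 14.02% to 14.8%) and WT1 (76.9% in replicate 15, the others 50.0% to 51.9%).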

How the results depend on the processing

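The count of close pairs called was 0 in each direction with edgeR, DESeq2 and limma, without a minimum per library, with multi-mapped reads, without the lane term, with only the close pairs fitted, with at least 100 reads per junction, in lane 7 and in lane 8 alone, with a minimum change of 10 points, and without each library in turn. The smallest adjusted p over these was 0.0879, in lane 8 alone. The test of treatment by lane called 0 pairs, with 76 at an unadjusted p under 0.05. Of 784 values for the 52 named pairs, 773 moved by less than the spread between replicates and 11 by more, all 11 in a single lane. Each value is the difference in mean share, which uses no model. It could not change with DESeq2, limma, no lane term, no minimum per library, only the close pairs, or at least 100 reads per junction. Only multi-mapped reads, a single lane or a left-out library could move it. The difference had the opposite sign in 60 of the 784 values, in 26 pairs, none of them called. Genes of the recognition list called higher numbered 0, and 4 without the expression filter (HNRNPA1, PRPF8, SNRNP200 and TIAL1); the cause was not tested. No paired analysis was possible because the groups share no replicate numbers. Depth limits the shallow pairs, and 237 pairs were too shallow for the test.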
